A study of Mus musculus with 6 samples.

Results

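Activins are secreted dimers of inhibin beta subunits, and this account follows the genes of that system in mouse embryonic stem cells given a knockdown reagent against the long noncoding RNA Panct1. The 10 genes were taken by name: the ligand subunits Inha, Inhba and Inhbb, the antagonists Fst, Fstl1 and Fstl3, and the receptors Acvr1, Acvr1b, Acvr2a and Acvr2b. All probe sets annotated to exactly 1 of these genes were used, which gave 20 probe sets of the 45037 tested, for 10 of 18193 genes. The genes were chosen by pathway, with their signals in this same comparison already known (among them the lower Inhbb and the higher Fst), so the counts, differences and p-values of the members are a description and not an independent test.

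The 3 Panct1 knockdown arrays came from Oct4-Gip embryonic stem cells reverse transfected with an esiRNA against Panct1, an enzyme-cut pool of short interfering RNAs. The 3 Luciferase control arrays came from the same line given an esiRNA against Luciferase, which mouse cells lack. In both groups 60000 cells received 800 ng of esiRNA, were kept in serum with the cytokine LIF, and gave total RNA 72 hours later. The Oct4-Gip line carries a reporter and drug resistance cassette under Oct4 regulatory sequences, and it was the only line on the arrays. Values are log2 signals made by RMA, which corrects, normalises and summarises the probes of each set, and a difference of 1 on this scale is a doubling. No probe set was named as Panct1, and its depletion was not assessed here. In RNA from whole cultures, fewer cells of a type and less RNA per cell cannot be told apart.

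Activin is a pair of beta subunits (activin A from Inhba, activin B from Inhbb), while the alpha subunit from Inha joins a beta subunit to make inhibin, which opposes activin. Activin binds the type II receptors ACVR2A and ACVR2B, which then activate the type I receptor ACVR1B, and the signal passes to SMAD2 and SMAD3. Follistatin binds activin and keeps it from its receptors. In embryonic stem cells this branch of signalling is known above all for its role, shared with Nodal, in the exit towards mesoderm and endoderm.

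After Panct1 knockdown the signal of an Inhbb probe set was 3.96-fold lower than in control, while all 5 probe sets of the 3 antagonists were higher. Of the 20 probe sets, 7 were higher in knockdown, 1 was lower and 12 did not pass, with limma and an adjusted p threshold of 0.05. Over all 45037 probe sets 14.6% passed, 7.82% as higher and 6.76% as lower. The 3 arrays of a group lay wholly on one side of the other group's for 11 of the 20, against 30.4% of all probe sets. The members' median log2 difference was 0.18, beside -0.02 for all probe sets. With 1 probe set per gene, the brightest, 7 genes were higher, 1 was lower and 2 did not pass. Of 18193 genes 24.2% passed, 12.9% as higher and 11.3% as lower. The lower gene was Inhbb, and its brightest set, 1426858_at, owed that place to the control arrays. It averaged 8.45 there against 7.30 for 1426859_at, but in knockdown 6.46 against 7.11.

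**Figure D1:**
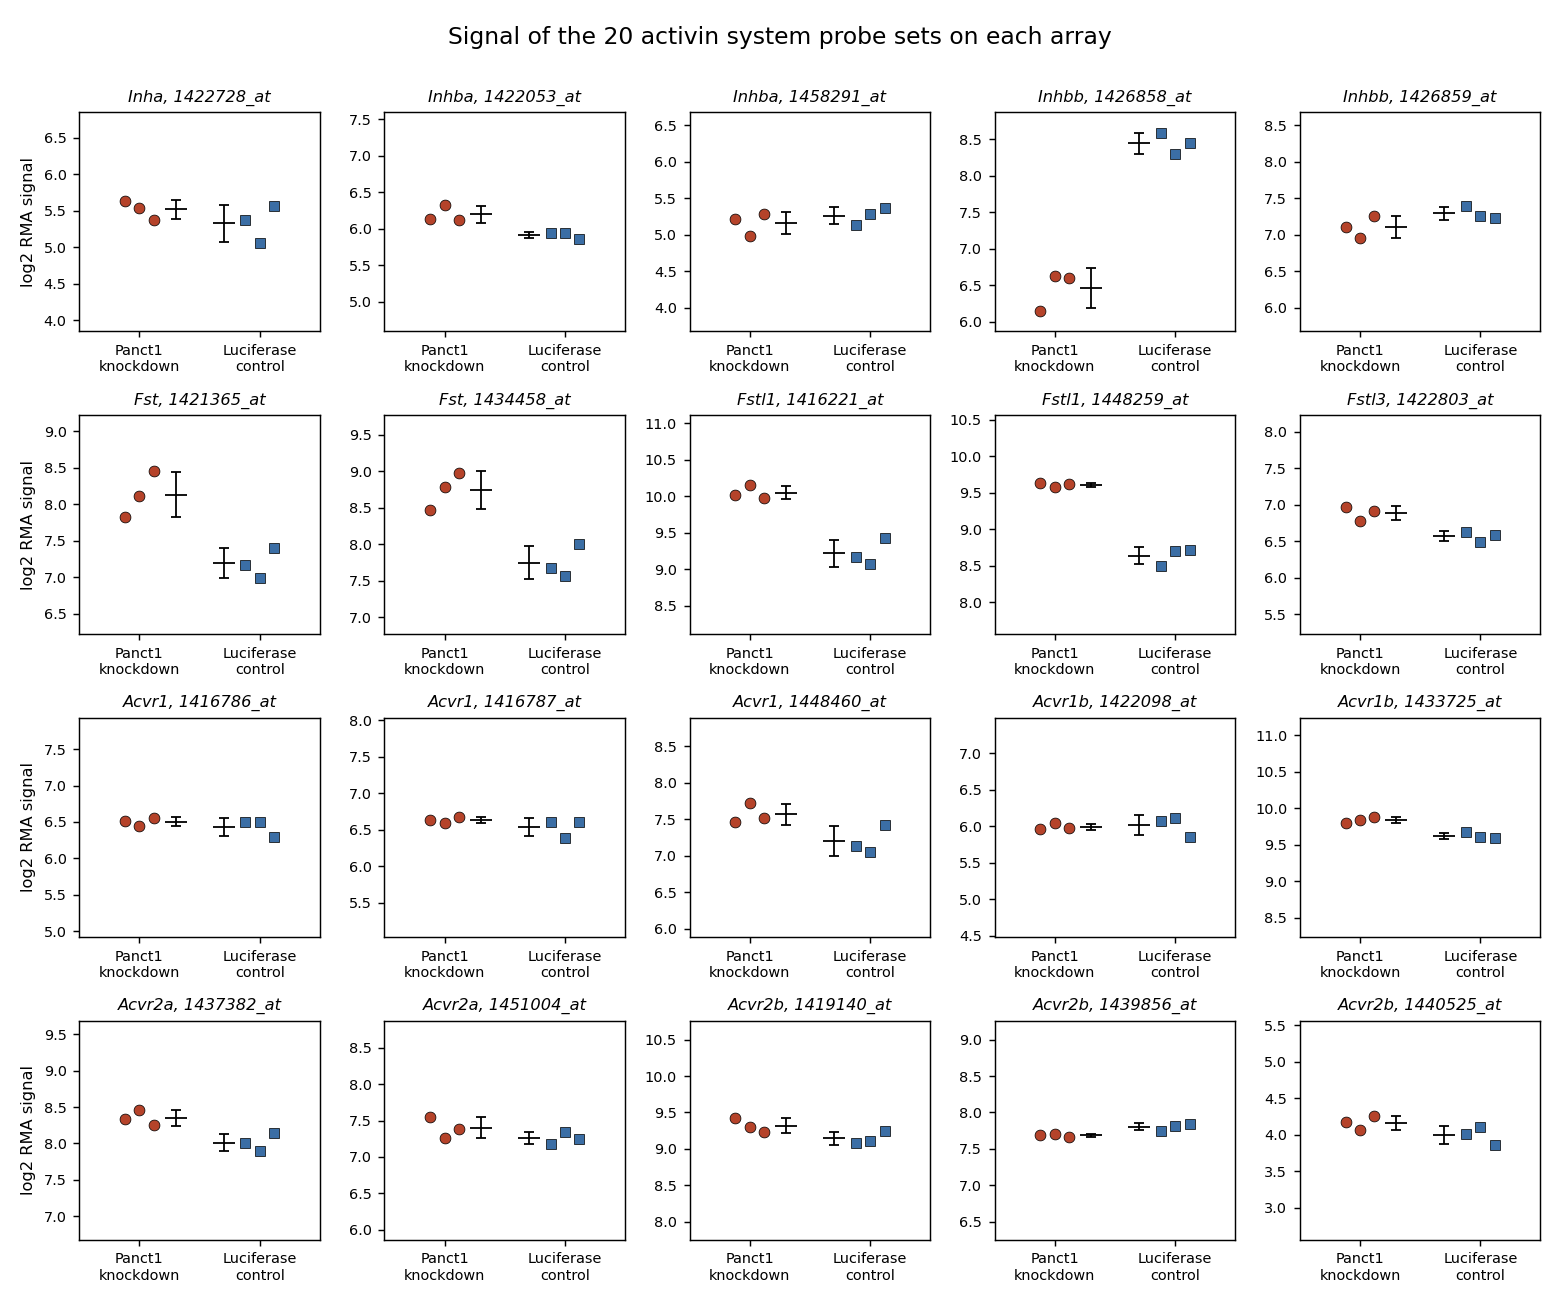
Log2 RMA signal of each of the 20 probe sets on the 3 Panct1 knockdown arrays (red circles) and the 3 Luciferase control arrays (blue squares), with the mean and SD of each group beside the points. Every panel spans the same range of 3 log2 units, so distances can be compared between panels. Inhbb 1426858_at is the one panel with knockdown far below control, and the 5 antagonist panels all have knockdown above control.

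Inhbb, the beta subunit of activin B, gave the largest difference among the members. Its probe set 1426858_at read 6.15, 6.63 and 6.60 on the knockdown arrays, against 8.59, 8.30 and 8.45 on the control arrays. The highest knockdown array lay 1.67 below the lowest control array. The log2 difference was -1.99 (SE 0.13, 95% interval -2.29 to -1.68, limma adjusted p = 4.65e-05), a signal 3.96-fold lower in knockdown. It ranked 195 of all probe sets by p.

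The other Inhbb probe set, 1426859_at, did not follow it. It read 7.11, 6.96 and 7.26 in knockdown, against 7.40, 7.26 and 7.23 in control, and the groups overlapped. Its difference was -0.19 (95% interval -0.40 to 0.02, limma adjusted p = 0.240), so its interval does not reach the change read by 1426858_at. Within single arrays, 1426858_at minus 1426859_at was -0.96, -0.33 and -0.66 in knockdown and 1.19, 1.04 and 1.22 in control, a change of -1.80 between the groups. Which transcripts or ends of Inhbb the probe sets read is not given in the sources used here, and the cause of their disagreement was not tested.

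Inhba, the beta subunit of activin A, moved the other way and by little. Its probe set 1422053_at read 6.13, 6.33 and 6.12 in knockdown, against 5.94, 5.94 and 5.86 in control, without overlap. The log2 difference was 0.28 (SE 0.08, limma adjusted p = 0.0460). Without any 1 of the 6 arrays the adjusted p was above the threshold (0.0605 to 0.152), and it was above it in 10 of 13 alternative settings in all. The other Inhba probe set, 1458291_at, ranged from 4.99 to 5.28 in knockdown and from 5.14 to 5.37 in control and differed by -0.10, which did not pass. Inha, the inhibin alpha subunit, read 5.64, 5.54 and 5.37 in knockdown and 5.37, 5.06 and 5.56 in control. Its groups overlapped, and the difference of 0.19 had an interval of -0.10 to 0.48.

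Fst encodes follistatin, the classical secreted trap of activin. Its probe set 1434458_at read 8.47, 8.79 and 8.98 in knockdown, against 7.68, 7.56 and 8.00 in control. Its probe set 1421365_at read 7.83, 8.11 and 8.45 in knockdown, against 7.17, 6.99 and 7.40 in control. On both, every knockdown array lay above every control array, by at least 0.47 and 0.43. The log2 differences were 1.00 (SE 0.15, limma adjusted p = 0.00253) and 0.94 (SE 0.16, limma adjusted p = 0.00474), folds of 2.00 and 1.92. The probe sets also ordered the 6 arrays alike. Within arrays 1421365_at minus 1434458_at stayed between -0.68 and -0.53 in knockdown and between -0.60 and -0.51 in control.

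Fstl1 encodes a secreted glycoprotein with a follistatin-like domain that is better known for binding BMPs than activin. Its probe set 1448259_at read 9.63, 9.58 and 9.62 in knockdown, against 8.50, 8.70 and 8.72 in control. The knockdown arrays lay within 0.05 of each other and 0.86 above the highest control array. The log2 difference was 0.97 (SE 0.08, 95% interval 0.79 to 1.15, limma adjusted p = 1.09e-04), a 1.96-fold higher signal. Its probe set 1416221_at read 10.01, 10.15 and 9.98 in knockdown, against 9.16, 9.07 and 9.42 in control, and was 1.78-fold higher (log2 difference 0.83, SE 0.10, limma adjusted p = 8.83e-04). The intervals of the 2 probe sets overlap.

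Fstl3 encodes a follistatin relative that also binds activin. Its only probe set, 1422803_at, read 6.97, 6.78 and 6.92 in knockdown, against 6.63, 6.49 and 6.59 in control. The groups were 0.15 apart, and the log2 difference was 0.32 (SE 0.08, limma adjusted p = 0.0249). It stayed past the threshold without Panct1 knockdown replicate 2, but not without any other single array (adjusted p 0.0531 to 0.0794). All 3 antagonist genes were thus higher with 1 probe set per gene, with a median difference of 0.83.

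Marker lists were read beside these results, each as the mean log2 signal over its measured genes. Of all genes 12.9% were higher and 11.3% lower, the shares to set beside the counts that follow. All 12 embryonic stem cell markers were measured, with list means of 12.37 to 12.39 in knockdown and 12.57 to 12.66 in control, and 0 were higher and 7 lower. In the trophectoderm list 10 of 12 genes were higher and 0 lower. Its means were 8.50 to 8.51 in knockdown and 7.35 to 7.40 in control, and its marker Elf5 lay below the lower quartile on all 6 arrays. Of 12 fibroblast markers 2 were higher, Col1a1 and Col3a1, with list means of 5.60 to 5.63 in knockdown and 5.53 to 5.61 in control. Lum and Fap lay below the lower quartile on all 6 arrays, and Col3a1 on 2, both of the control. The other probe sets of Col1a1 and Col3a1 differed by 0.08 and 0.11 without passing. Of 12 primitive endoderm markers 3 were higher and 4 lower, of 11 mesoderm markers 1 was higher (Mixl1), and of 10 neuroectoderm markers 2 were higher and 2 lower. The part of these cell types in the values of the activin system was not tested.

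Promoter sequences from RefSeq (build GRCm38.p6) were matched for 9 of the 10 members, all but Fst, as windows of 250 bases before and 50 after the gene's start, 5′ to 3′ on the gene's strand. Those of Inhbb, which was lower, and of the antagonists Fstl1 and Fstl3, which were higher, are shown so that the starts of genes on opposite sides can be compared. Capitals mark matches to the SMAD box CAGAC on either strand (GTCTG on the other).
Inhbb, chr1:119422199-119422498, minus strand: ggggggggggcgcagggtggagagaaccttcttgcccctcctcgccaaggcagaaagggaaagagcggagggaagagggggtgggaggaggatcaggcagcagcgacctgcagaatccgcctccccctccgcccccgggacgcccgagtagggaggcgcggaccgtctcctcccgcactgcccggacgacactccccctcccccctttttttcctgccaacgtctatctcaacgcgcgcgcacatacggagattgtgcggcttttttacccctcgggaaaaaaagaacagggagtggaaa
Fstl1, chr16:37776805-37777104, plus strand: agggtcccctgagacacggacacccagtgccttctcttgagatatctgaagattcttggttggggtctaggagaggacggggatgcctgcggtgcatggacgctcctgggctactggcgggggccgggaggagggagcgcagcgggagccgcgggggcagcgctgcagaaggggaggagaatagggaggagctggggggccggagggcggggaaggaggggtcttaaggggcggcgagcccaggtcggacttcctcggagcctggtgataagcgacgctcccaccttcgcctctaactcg
Fstl3, chr10:79777024-79777323, plus strand: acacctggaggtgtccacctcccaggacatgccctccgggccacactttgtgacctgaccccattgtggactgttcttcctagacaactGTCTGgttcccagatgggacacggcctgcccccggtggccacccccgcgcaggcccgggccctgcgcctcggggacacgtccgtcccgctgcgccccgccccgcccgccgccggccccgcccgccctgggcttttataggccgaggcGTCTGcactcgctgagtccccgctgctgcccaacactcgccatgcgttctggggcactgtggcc

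The Inhbb window had 0 matches to the SMAD box and 23 CpG dinucleotides at 64.3% G and C. The Fstl1 window also had 0 matches, with 21 CpG at 66.7%, and the Fstl3 window had 2 matches and 25 CpG at 70.7%. Of the 9 members' windows 4 held a SMAD box (Inha, Fstl3, Acvr2a and Acvr2b). Of 32851 promoter windows of the same length 49.6% did, and their medians were 7 CpG and 52.7% G and C. The FOXH1 motif AATNNACA, searched on both strands, was in 12.2% of all windows and in 0 of those of the 9 members. These are matches of letters and not sites of binding, and no match says only that the letters are not in the window.

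**Figure D2:**
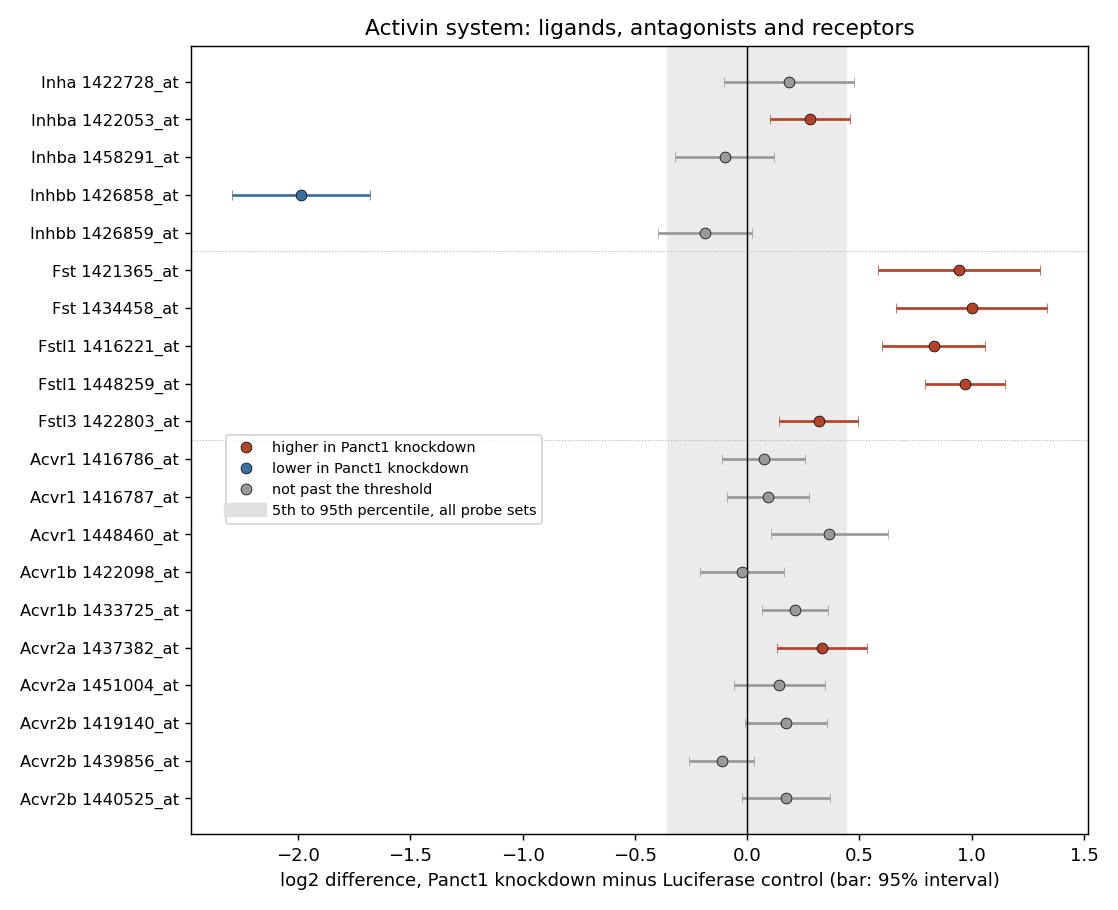
Log2 difference of each probe set, Panct1 knockdown minus Luciferase control, with limma's 95% interval, ordered by role from ligand subunits through antagonists to receptors (dotted lines part the roles). Red marks probe sets past the threshold as higher, blue as lower and grey those that did not pass, and the shaded band is the range from -0.35 to 0.44 that holds the 5th to the 95th percentile of all probe sets. Inhbb 1426858_at lies below the band, both probe sets of Fst and of Fstl1 lie above it, and all receptor probe sets lie inside it.

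The 4 receptor genes had 10 probe sets, of which 1 passed (10%, against 14.6% of all probe sets), and their differences ran from -0.11 to 0.37. Acvr2a, a type II receptor for activin, had the probe set that passed. This set, 1437382_at, read 8.33, 8.46 and 8.25 in knockdown, against 8.00, 7.90 and 8.14 in control. The knockdown mean was 0.33 higher (SE 0.09, limma adjusted p = 0.0355), with 0.11 between the groups. Without replicate 1 or replicate 2 of either group it did not pass (adjusted p 0.0746 to 0.122). The other set for Acvr2a, 1451004_at, differed by 0.14 with overlapping groups.

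Acvr2b is the other type II receptor, and none of its 3 probe sets passed. Its probe set 1419140_at read 9.43, 9.30 and 9.23 in knockdown and 9.08, 9.11 and 9.25 in control, and 1439856_at read 7.69, 7.71 and 7.67 in knockdown and 7.75, 7.82 and 7.84 in control. These differed in opposite directions, by 0.17 and by -0.11. The third, 1440525_at, was dimmer than the lower quartile on each array, where that quartile was 4.65 to 4.70. It read 4.07 to 4.26 in knockdown and 3.86 to 4.11 in control.

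Acvr1b encodes ALK4, the type I receptor that passes the activin signal on. Its probe set 1433725_at read 9.79, 9.84 and 9.88 in knockdown, against 9.67, 9.61 and 9.59 in control. The groups did not overlap, but the difference of 0.21 did not pass over all probe sets (SE 0.07, limma adjusted p = 0.0629). Its probe set 1422098_at differed by -0.02. Acvr1 encodes ALK2, a type I receptor used mainly by BMPs. Its probe set 1448460_at read 7.46, 7.73 and 7.52 in knockdown, against 7.13, 7.05 and 7.43 in control, a difference of 0.37 (limma adjusted p = 0.0671) with a gap of 0.03 between the groups. This set passed without Luciferase control replicate 3 (adjusted p = 0.0208). The other 2 sets for Acvr1 differed by 0.07 and 0.09.

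In the fit with 1 probe set per gene the same brightest sets of Acvr1, Acvr1b and Acvr2a passed (limma adjusted p = 0.0423, 0.0349 and 0.0202). Each call depended on single arrays. Acvr1 still passed without Panct1 knockdown replicate 1 or Luciferase control replicate 3, but not without any other array (adjusted p 0.0736 to 0.141). Acvr1b still passed without Panct1 knockdown replicate 1, and without no other array (0.0646 to 0.108). Acvr2a did not pass without Luciferase control replicate 1 or 2 or Panct1 knockdown replicate 2 (0.0660 to 0.0790). Inhba, which also passed there (adjusted p = 0.0261), kept its call without Panct1 knockdown replicate 1 or 3 and lost it without each other array (0.0538 to 0.0991). With the mean of a gene's probe sets the differences were 0.18 for Acvr1 (adjusted p = 0.0592), 0.10 for Acvr1b (0.325) and 0.09 for Inhba (0.284), none of which passed. Acvr1b did not pass with its set of largest variance either (0.0633). The count of higher members, 7, was 3 without Panct1 knockdown replicate 2, without Luciferase control replicate 1 and without Luciferase control replicate 2.

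**Figure D3:**
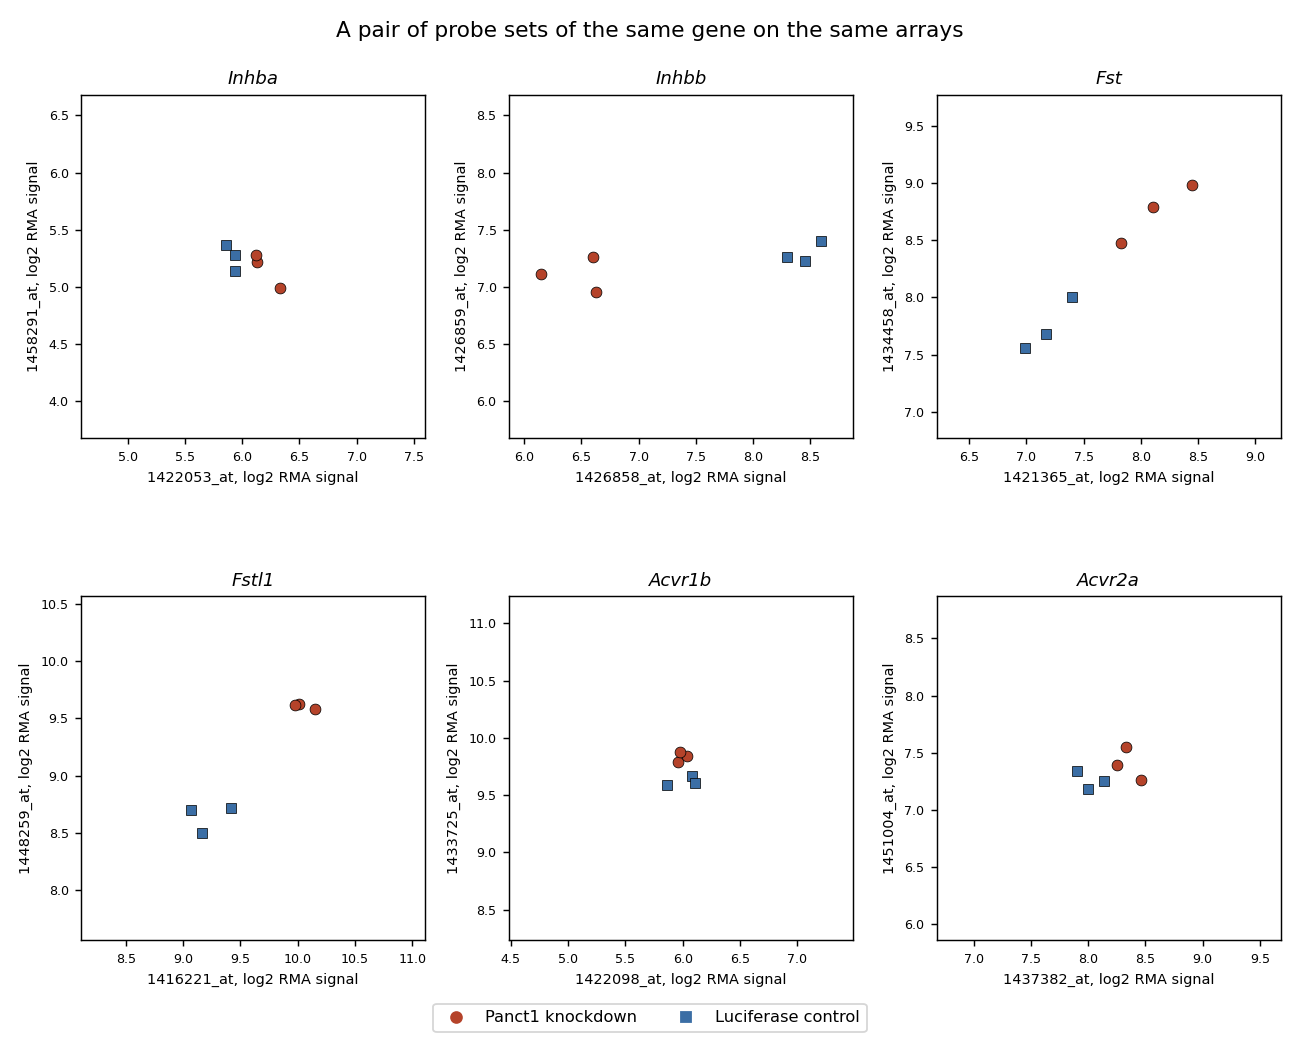
Log2 RMA signal of a pair of probe sets for each of 6 genes, 1 point per array, with the knockdown arrays as red circles and the control arrays as blue squares and 3 log2 units on each axis. The points of Fst and Fstl1 are parted along both axes. Those of Inhbb are parted along the axis of 1426858_at alone, and those of Inhba, Acvr1b and Acvr2a along 1 axis by 0.18 or less.

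Other genes of the pathway were read from lists of ligands, receptors, convertases, SMAD2/3 transduction and responsive genes. Of 53 listed genes 48 were measured, and 14 were higher and 2 lower in knockdown by limma with 1 probe set per gene. That is 33.3%, beside 24.2% of all genes. The lists were drawn up with earlier results of these data known, so this share is a description and not a test. The count of higher genes was 9, and that of lower genes 0, without Luciferase control replicate 1. The count of lower genes was also 0 without Panct1 knockdown replicate 2 and without Luciferase control replicate 3.

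Among other ligands of these receptors, 1 of 5 measured passed, where 24.2% of all genes did. Gdf3, a relative of Nodal, read 11.57, 11.49 and 11.55 in knockdown, against 11.25, 11.27 and 11.32 in control (log2 difference 0.26, limma adjusted p = 0.0148), and its call was lost without Luciferase control replicate 1 (0.0611). Nodal, which uses the same receptors as activin, averaged 10.81 ± 0.21 in knockdown and 10.95 ± 0.09 in control (SD, n = 3 each), and its interval of -0.38 to 0.09 includes 0. Without Panct1 knockdown replicate 1, the highest of its group for Nodal, Lefty1 and Lefty2, Nodal passed as lower (limma adjusted p = 0.0437), as did the antagonist Lefty2 (0.0411). With all arrays Lefty2 differed by -0.17 (limma adjusted p = 0.405) and Lefty1 by 0.14 (0.313). Tdgf1, the Nodal co-receptor Cripto, averaged 13.25 ± 0.07 in knockdown and 13.38 ± 0.01 in control (SD, n = 3 each) and did not pass (limma adjusted p = 0.197), but did with an intensity trend and robust variance (0.0368).

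Of 18 other receptors, co-receptors and antagonists 4 were higher and 0 lower, a share near the 24.2% of all genes. Tgfbr3 encodes betaglycan, the co-receptor through which inhibin blocks activin receptors. It read 8.10, 7.79 and 7.70 in knockdown, against 6.98, 6.94 and 7.08 in control, a 1.82-fold higher signal (log2 difference 0.86, SE 0.10, limma adjusted p = 4.47e-04). Its other probe set differed by 0.18 without passing. Bmpr2, a type II receptor of BMPs, read 9.13, 9.46 and 9.28 in knockdown, against 8.55, 8.36 and 8.76 in control (difference 0.73, SE 0.12, limma adjusted p = 0.00201), with 1 of its 3 probe sets past the threshold. Tgfbr2, the type II receptor of TGF-beta, read 6.41, 6.39 and 6.45 in knockdown, against 5.85, 5.85 and 5.79 in control (difference 0.59, limma adjusted p = 1.89e-04). Its other probe sets reached down to -0.18, and the call was lost with the mean of its probe sets (0.112). Bmpr1a, a type I receptor of BMPs, was higher by 0.29 (limma adjusted p = 0.0395). It still passed without Panct1 knockdown replicate 1 or Luciferase control replicate 3, but not without any other array (0.0697 to 0.143). None of the 6 probe sets for Bmpr1a passed over all probe sets, their lowest difference was -0.18, and with their mean the difference was 0.05 (adjusted p = 0.620). With the set of largest variance it did not pass either (0.0515).

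Activin and Nodal precursors are cut by proprotein convertases, and 1 of the 4 listed was higher, again near that share. Furin read 8.17, 8.26 and 8.21 in knockdown, against 7.84, 7.79 and 7.77 in control (log2 difference 0.41, SE 0.06, limma adjusted p = 0.00140), while the other 3 differed by -0.12 to -0.03 without passing.

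Of 14 genes of SMAD2/3 transduction 4 were higher and 2 lower, beside 12.9% and 11.3% of all genes. Smad3, a receptor-activated SMAD, read 8.89, 8.57 and 8.76 in knockdown, against 8.18, 8.30 and 8.29 in control (log2 difference 0.48, SE 0.09, limma adjusted p = 0.00418). For Smad3 1 of 3 probe sets passed, and the mean of them did not (0.117). Smad2 averaged 9.67 ± 0.04 in knockdown and 9.69 ± 0.03 in control (SD, n = 3 each), with an interval of -0.15 to 0.12 for its difference. The common partner Smad4 was higher by 0.22, the inhibitory Smad7 by 0.30 and Zfyve9, the anchor that brings SMADs to receptors, by 0.25. The corepressor gene Tgif1 fell by 0.28 and Drap1, which restrains FOXH1, fell by 0.24. The limma adjusted p-values of these 5 lay between 0.0200 and 0.0436, and each call was lost on leaving out single arrays. Smad4 lost it without replicate 2 of Panct1 knockdown, replicate 3 of Panct1 knockdown, or replicate 1 or 2 of Luciferase control (0.0589 to 0.107). Smad7 lost it without replicate 1 or 2 of either group (0.0583 to 0.0734), and Zfyve9 without each array but Panct1 knockdown replicate 1 (0.0698 to 0.161). Tgif1 and Drap1 lost it without replicate 1 or 2 of Panct1 knockdown and without replicate 1 or 3 of Luciferase control (0.0586 to 0.0755 and 0.0675 to 0.0834).

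Of 12 measured genes that activin or Nodal can induce, 5 were higher and 0 lower, beside 12.9% and 11.3% of all genes. Smad7 was one of the 5. Tagln, the actin-binding transgelin, read 11.35, 11.51 and 11.52 in knockdown, against 8.90, 8.66 and 8.86 in control, a 6.29-fold higher signal. The log2 difference was 0.84 for Ccn2, a matricellular protein, 0.59 for Mixl1, of the primitive streak, and 0.49 for Eomes, of streak and trophectoderm (limma adjusted p of the 4 between 8.43e-07 and 0.00312). Nodal, Lefty1 and Lefty2, listed here too, did not pass, as given above. Eomes is also on the trophectoderm list and Mixl1 on the mesoderm list. Several of these genes also respond to other pathways, and the list does not measure activin signalling.

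**Figure D4:**
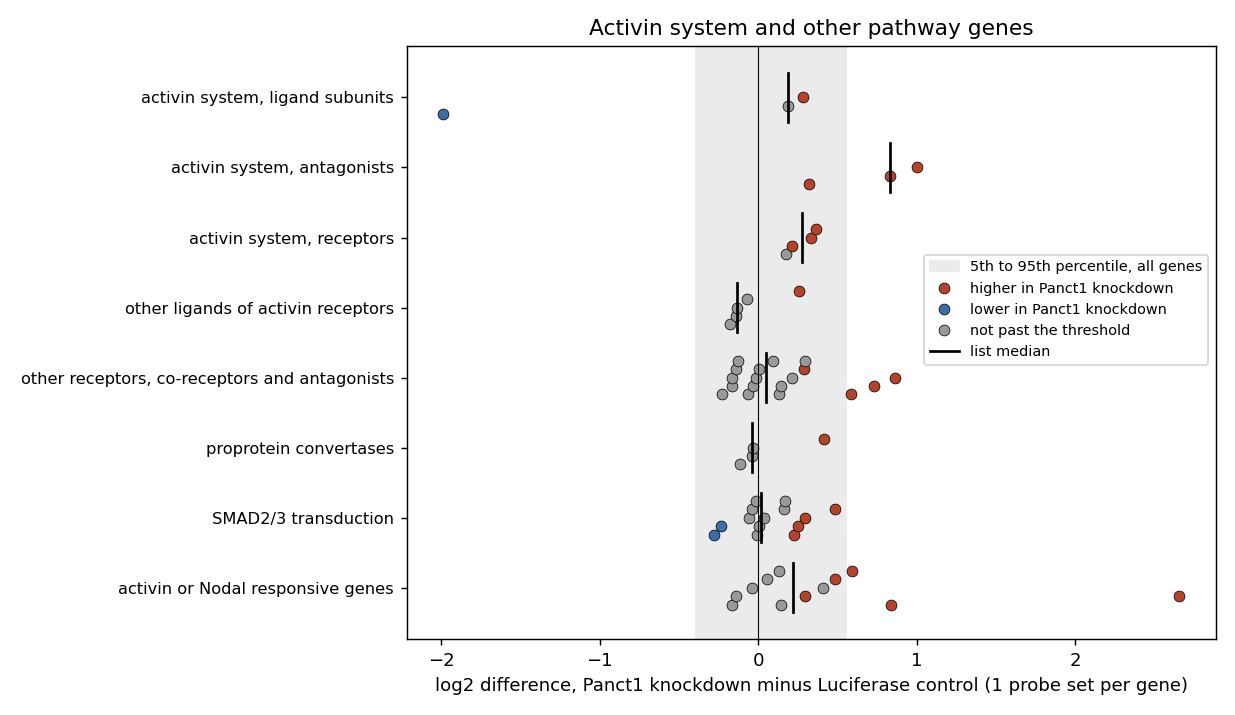
Log2 difference of each measured gene, Panct1 knockdown minus Luciferase control, with 1 probe set per gene, for the 3 roles of the activin system and the 5 lists of other pathway genes. Points are genes (red higher, blue lower, grey not past the threshold), black bars are list medians, and the shaded band from -0.39 to 0.56 holds the 5th to the 95th percentile of all genes. The antagonists have the highest median, 0.83, and Inhbb and Tagln are the points farthest from 0.

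The genes most like the members over the 6 arrays were ranked by the mean absolute difference between log2 profiles, each with its own mean taken off, over 18192 genes. Nearest to Inhbb 1426858_at were Gbx2 (mean absolute difference 0.11), Enox1 (0.13) and Ttn (0.16), whose own differences were -2.00, -1.88 and -1.84. Nearest to Fst 1434458_at were Nefl (0.05), Fgf13 (0.06) and Epha1 (0.07), with differences of 1.02, 1.05 and 1.06. Likeness here is mostly a like difference between the 2 groups.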

How the data were processed

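Total RNA of 6 samples was measured on Affymetrix mouse arrays. The authors deposited log2 signals, 1 per probe set and array, made with GCOS 1.4 and RMA per the submitters' processing notes. Which arrays were normalised together is not given in the sources used here. They were used as deposited. Such summaries pull differences of dim probe sets towards 0, and precision is limited by the small number of arrays.

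Of 45101 probe sets 64 control sets were left out. Probe sets were named from the platform annotation (34945 had 1 gene symbol, 932 several and 9160 none), with 34741 symbols updated through gene IDs. Differences were fitted with limma 3.58.1 (R 4.3.3, lmFit and eBayes, group as the only term, two-sided), with Benjamini-Hochberg adjustment across the 45037 probe sets, or across 18193 genes, each with its brightest probe set. The fit was tested on simulated data.

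The members, lists and named genes were chosen with earlier results of these data known. Named are every member, every gene of the pathway lists past the threshold, and Smad2, Smad3, Smad4, Nodal, Tdgf1, Lefty1 and Lefty2. Most genes of the marker lists are only counted. The 3 genes nearest in profile to the largest fall and rise are also named. Nothing in the labels says that replicates came from separate cultures. The p-values weigh each group difference against the spread of these samples, which may be only technical. No arrays were copies: at most 3.20% of values were equal in any pair. Arrays of a group correlated at 0.997 to 0.998 and arrays of different groups at 0.991 to 0.993, and array medians lay between 6.07 and 6.09. Alternatives were the replicate block, other scalings, variance models, array weights, filters, a minimum fold, other choices of probe set and leaving out each array.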

Additional observations from a re-analysis of the deposited data

How the results depend on the processing

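Of 275 repeats of the differences of member probe sets, 247 kept their direction or stayed short of the threshold as before, 22 lost a call, 6 gained one and 0 reversed. Only differences past the threshold in either fit could count as reversed. The uncalled Acvr1b 1422098_at went from -0.02 to 0.008 without Luciferase control replicate 1 and to 0.02 without Luciferase control replicate 2. The calls of Inhbb 1426858_at (-2.07 to -1.83) and of both sets of Fst and of Fstl1 held in all 14 settings run for each. The count of member probe sets called, 8, ranged from 5 to 7 on leaving out single arrays, and that of higher ones, 7, from 4 to 6. With a 1.2-fold minimum they were 5 and 4, and all probe sets called were 1728. Without single arrays 4266 to 5574 of those passed. With the mean of a gene's probe sets 4 member genes were higher (Inhbb then at -1.09), and leaving out single arrays gave 3 to 7. Other pathway genes called ranged from 9 to 14 higher and from 0 to 2 lower on leaving out single arrays.

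Same-numbered arrays did not deviate together (correlations of -0.16, -0.30 and -0.15), while arrays of different numbers gave -0.13 to 0.31. With so few arrays these values cannot show whether the samples were prepared in pairs. With the replicate block 6 member probe sets were called, Inhba (adjusted p = 0.0895) and Acvr2a (0.0980) losing theirs, and 4692 of all probe sets passed. In the fit with 1 probe set per gene the block left 5 members higher, Acvr1 (limma adjusted p = 0.0542) and Acvr1b (0.113) losing their calls. Among other pathway genes Gdf3 (0.0559), Bmpr1a (0.0601), Smad4 (0.0883), Zfyve9 (0.0915) and Drap1 (0.0782) lost theirs. Foxa2 (0.0136) and Cfc1 (0.0481) gained one, leaving 12 higher and 1 lower. Median centring and repeated quantile normalisation left 8 called, with scaling shifting the median of all differences by at most 0.00333. Acvr1 1448460_at and Acvr1b 1433725_at gained calls under some variance and filter settings. Why calls differed between settings was not tested. Signal below the lower quartile limits Acvr2b 1440525_at.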
